A study of Arabidopsis thaliana with 10 samples.

Results

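Xyloglucan endotransglucosylase/hydrolase (XTH) genes were followed in Arabidopsis thaliana seedlings exposed to jasmonic acid (JA). The genes are XTH4 (AT2G06850), XTH7 (AT4G37800), XTH9 (AT4G03210), XTH15 (AT4G14130), XTH16 (AT3G23730), XTH17 (AT1G65310), XTH18 (AT4G30280), XTH19 (AT4G30290), XTH22 (AT5G57560, also called TCH4) and XTH24 (AT4G30270), taken by gene identifier, 10 of the 32833 genes in each table. All 10 passed the filter on low counts in every comparison. Whole seedlings of Col-0, with no transgene or mutation, were sequenced as bulk RNA in 2 experiments. In Set1, 2 libraries came from seedlings aged 10 days and treated for 2 h with gaseous methyl jasmonate (Set1_2hJA), and 2 came from untreated seedlings of the same age (Set1_ctrl). Set2 held 3 libraries treated in the same way (Set2_2hJA) and 3 untreated libraries (Set2_ctrl). Per the methods of the study, plate lids were taken off and the plates were enclosed in a container for the treatment, and whether untreated plates were handled alike is not given in the sources used here. The comparison of JA with ctrl within each set asks which genes respond to the hormone.

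XTH enzymes act in the plant cell wall on xyloglucan, the hemicellulose that lies between cellulose microfibrils. They cut a xyloglucan chain and join the new end to another chain or, in some members, release it to water, so that the wall can be loosened and remade while a cell grows. The Arabidopsis family is large, and its genes are known to differ in tissue and in their response to auxin, brassinosteroids, shade and touch. JA is known as a hormone of wounding and defence that restrains seedling growth.

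The stretch of coding sequence that carries the catalytic site of the family is shown here because it lets the genes be compared base by base. It was found in each gene by a single in-frame match, on the coding strand only, to a degenerate pattern written so as to find all 10 genes, and 15 of the 16 bases that they share are fixed by that pattern, so the sharing is no finding. In the following 9 codons, read 5′ to 3′ from the RefSeq annotation of TAIR10.1, capitals mark the 16 of 27 bases that are the same in all 10 genes.
XTH4: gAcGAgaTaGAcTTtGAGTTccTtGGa
XTH7: gAcGAgcTtGAtTTtGAGTTctTaGGa
XTH9: aAcGAatTcGAtTTtGAGTTctTaGGg
XTH15: gAcGAgaTaGAcTTtGAGTTtcTaGGt
XTH16: gAcGAgaTaGAcTTtGAGTTtcTtGGt
XTH17: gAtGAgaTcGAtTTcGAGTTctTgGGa
XTH18: gAtGAgaTtGAtTTcGAGTTctTaGGa
XTH19: gAtGAgaTtGAtTTcGAGTTttTgGGg
XTH22: gAcGAgaTaGAtTTcGAGTTttTaGGg
XTH24: gAtGAgaTtGAtTTtGAGTTctTgGGt

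All 10 stretches were distinct, and pairs of genes differed at between 1 base (XTH15 and XTH16) and 9 bases (XTH9 and XTH16). Over the whole coding sequence the 45 pairs were between 57.2 and 92.2% identical, with a median of 64.1%. The root-type genes were most alike, with 92.2% identity between XTH17 and XTH18, 89.2% between XTH18 and XTH19 and 88.6% between XTH17 and XTH19. XTH15 and XTH16 were 81.7% identical. None of the 75-base windows of 9 transcripts, a length set by the difference between the deposited lengths and effective lengths, occurred in a transcript of another gene. XTH15 was the exception, with 27.2% of its windows shared with AT4G14120, a gene on the opposite strand that overlaps it. Counts of XTH15 were not whole in any of the 10 libraries, so its values are uncertain in a way that those of the other 9 genes, whose counts were whole in all 10 libraries, are not. The library kit keeps the strand of the RNA, but whether the counting used it is not given in the sources used here.

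The genes lie on all 5 nuclear chromosomes of TAIR10.1. XTH24 (chr4:14819192-14820595), XTH18 (chr4:14825757-14827211) and XTH19 (chr4:14828712-14830224) stand side by side on the minus strand with no annotated gene between them, 5161 and 1500 bases apart. XTH22 (chr5:23307006-23308680) follows XTH25 at a distance of 565 bases on the minus strand. The other genes lie apart from these clusters, namely XTH17 (chr1:24257054-24258506, plus strand), XTH4 (chr2:2763449-2765743, plus strand), XTH16 (chr3:8550037-8551403, plus strand), XTH9 (chr4:1415617-1417444, plus strand), XTH15 (chr4:8137020-8138392, minus strand) and XTH7 (chr4:17775370-17777445, minus strand). XTH4, XTH7 and XTH9 have 4 exons, XTH22 has 2 exons, and the other 6 genes have 3 exons. The counts are of reads over all exons of a gene.

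The promoters were searched on both strands over the 250 bases before each annotated start for CACGTG and CACGTT (the G-box and a variant that the JA factor MYC2 binds), for CACATG (a related E-box) and for TGTCTC (the core of auxin response elements). CACGTG was found in none of the 10 promoters, against 6.49% of 27443 promoters of protein-coding genes, and CACGTT in none, against 7.54%. TGTCTC was likewise found in none, against 10.9%. CACATG was found in 2 promoters, against 11.1% of all promoters. Both were promoters of the root-type genes XTH17 and XTH18, with the match 63 to 58 bases before the start. The last 80 bases before the start are shown for the 3 root-type genes because XTH17 and XTH18 lie on different chromosomes and yet are alike there, whereas XTH19, the neighbour of XTH18, is not. Capitals mark the match to CACATG, read as CATGTG on the strand of the gene, in chr1:24256974-24257053 for XTH17, chr4:14827212-14827291 for XTH18 and chr4:14830225-14830304 for XTH19, each from the strand of its gene.
XTH17: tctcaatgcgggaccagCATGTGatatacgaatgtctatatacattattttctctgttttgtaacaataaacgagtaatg
XTH18: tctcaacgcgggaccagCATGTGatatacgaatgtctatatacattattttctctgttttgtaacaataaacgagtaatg
XTH19: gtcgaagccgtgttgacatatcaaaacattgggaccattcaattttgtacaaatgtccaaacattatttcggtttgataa

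XTH17 and XTH18 were identical at 79 of these 80 bases, with the last 73 bases before the start all the same. The next most alike of the 45 pairs of genes, without gaps, were identical at 31 of 80 bases, and the median pair at 24. XTH18 and XTH19 were identical at 19 of 80 bases.

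Library totals ranged from 12147941 to 17200426 expected counts in Set1, whereas Set2 spanned 6333822 to 7774547. The JA treatment was visible in the 6 genes chosen to check it (JAZ1, JAZ5, JAZ10, AOS, LOX2 and VSP2), of which 6 of 6 rose in Set1 and in both sets combined and 5 of 6 in Set2. Markers of leaf mesophyll (4 genes), root endodermis (CASP1 to CASP5) and root hairs (5 genes) all had summed counts above 0 in every library. Plastid genes took 11.4% of the counts in Set1_2hJA replicate 1 and 13.8% in Set1_ctrl replicate 1, against 0.121 to 2.61% in the other 8 libraries. The share of rRNA genes was 8.98% and 11.6% in the same 2 libraries, against 0.0857 to 1.32% in the other 8. The 2 replicates of each group of Set1 were thus unlike in both shares. Set2_2hJA replicate 1 held 8.82 counts per kb over 4743 nuclear genes that had no count in Set1, against 0.219 to 0.839 in the other 5 libraries of Set2. Because different kinds of tissue were sampled together, fewer cells of a type and less RNA per cell cannot be told apart in any of the values below.

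Of the 10 XTH genes, 3 were lower and 1 was higher after JA, 6 did not pass, and no change that passed reached 2-fold. Levels between genes are compared in TPM, which takes account of transcript length, and levels of a gene between libraries in CPM (the count relative to the TMM-scaled library total). A gene is said to rise or fall where the quasi-likelihood test of edgeR, adjusted by Benjamini-Hochberg over all genes tested, gave an adjusted p no higher than 0.05. With both sets in a fit that had the set as a covariate, 3 of the 10 genes fell (XTH7, XTH22 and XTH4), against 6.67% of the 20213 genes tested, and 1 rose (XTH24), against 6.93%. None of the 10 also passed a threshold of at least 2-fold, which 2.63% of all genes passed upward and 1.4% downward, while without that threshold 7 of the 10 reached an unadjusted p of 0.05 or less, against 26% of all genes. Their log2 fold changes had a median of -0.42, and those of all genes tested a median of 0.01. In Set1 alone only XTH7 fell, against 2.96% of 20098 genes, and none of the 10 rose, against 3.62%. In Set2 alone none of the 10 passed with edgeR in either direction, against 2.57% lower and 3.18% higher of 19259 genes. The replicate numbers pair the libraries of Set2, and with the replicate number as a block 2 of the 10 fell there (XTH4 and XTH7) and none rose. At an unadjusted p of at most 0.05 there were 4 of the 10 genes in Set1 (20% of all genes) and 5 in Set2 (18.2%). DESeq2 called 2 genes lower and 0 higher in Set1 and 3 lower and 1 higher in Set2, and limma on log2(TPM + 1) called 0 in both sets. A change of at least 2-fold that passed was found for 0 of the 10 genes in either set with edgeR, against 2.94% higher and 2.2% lower of all genes in Set1 and 1.78% higher and 0.758% lower in Set2.

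**Figure D1:**
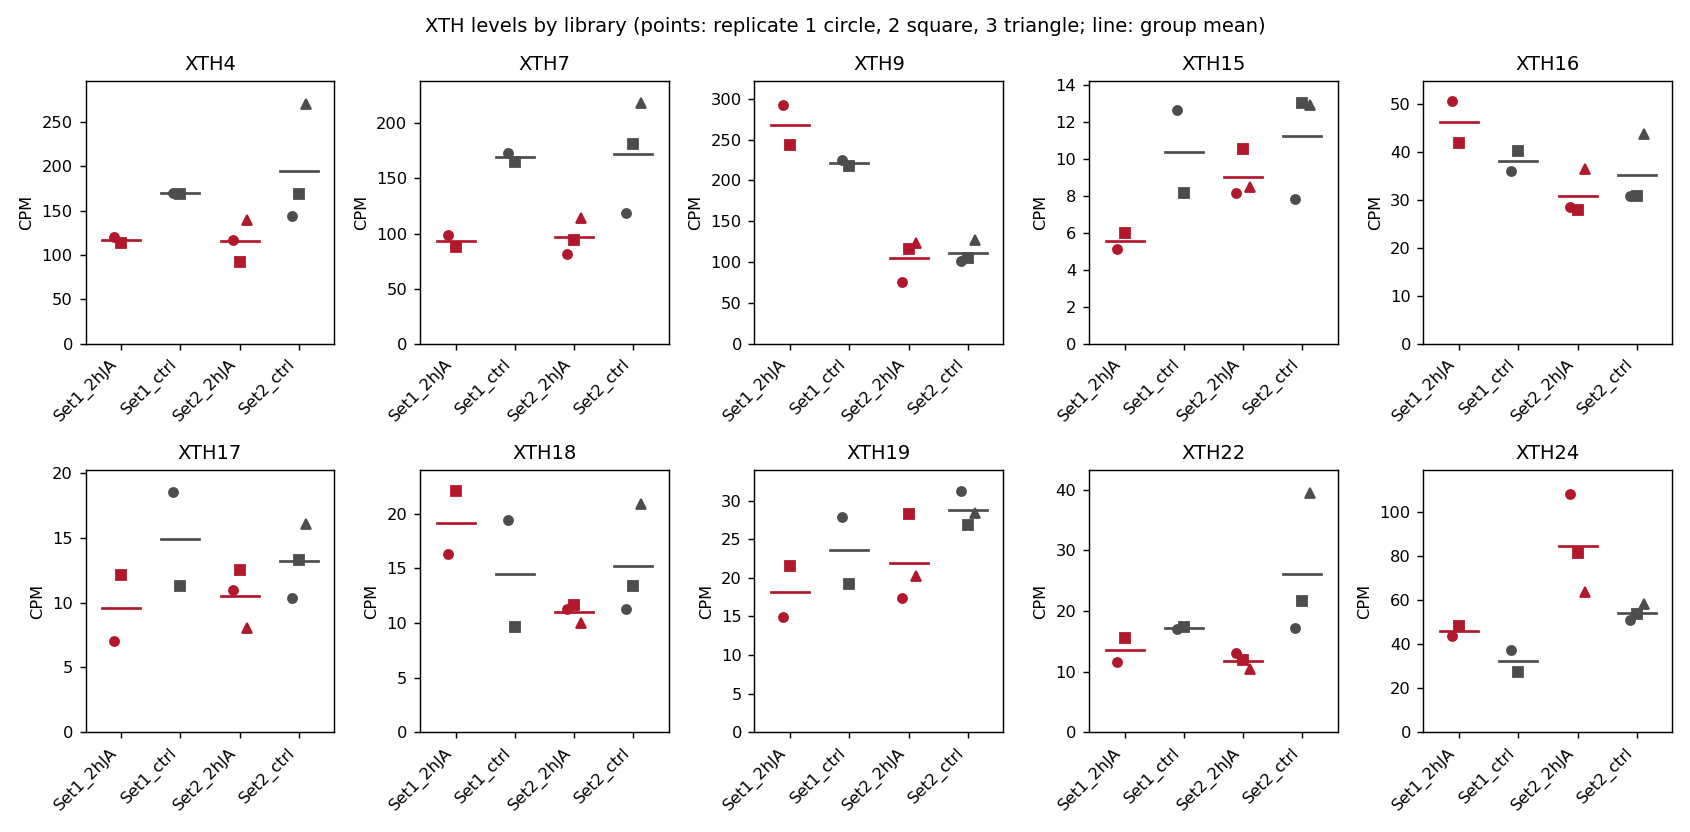
CPM of each XTH gene (vertical axes from 0, own scale per gene) in the libraries of Set1_2hJA, Set1_ctrl, Set2_2hJA and Set2_ctrl, with 1 point per library and a line at the group mean. XTH4, XTH7 and XTH22 lie lower in every JA library than in any ctrl library of the same set, XTH24 lies higher, and the groups of XTH17, XTH18 and XTH19 overlap in both sets.

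The CPM of JA and ctrl libraries did not overlap in Set1 for 4 genes that were lower (XTH4, XTH7, XTH15 and XTH22), where 23.8% of 19690 genes were lower without overlap, and for 3 that were higher (XTH9, XTH16 and XTH24), against 25.8%. In Set2 the groups did not overlap for 3 genes that were lower (XTH4, XTH7 and XTH22), against 12.1% of all genes, and for 1 that was higher (XTH24), against 10.9%. The plot of CPM by library shows these groups.

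XTH4, XTH7 and XTH9, which have 4 exons here, were the 3 most highly expressed of the 10 genes in 9 of 10 libraries. In Set2_2hJA replicate 1, XTH24 ranked first. In TPM they made up 57.2 to 80.8% of the sum over the 10 genes, and the 10 genes made up 59.2 to 71.4% of the sum over all 33 XTH genes. Ordered by their TPM over the 5 ctrl libraries of both sets, the genes ran XTH4, XTH7, XTH9, XTH24, XTH16, XTH19, XTH22, XTH17, XTH18 and XTH15. The order was not the same in both sets, since XTH9 ranked first in both Set1_ctrl libraries and below XTH4 and XTH7 in the 3 Set2_ctrl libraries. Neighbours in that order often differed by less than their spread. The mean log2 ratio of TPM in the 5 ctrl libraries was 0.07 ± 0.19 (SD) for XTH4 over XTH7, 0.07 ± 0.60 for XTH7 over XTH9, 0.30 ± 0.55 for XTH24 over XTH16, 0.06 ± 0.50 for XTH22 over XTH17 and 0.16 ± 0.22 for XTH17 over XTH18. In CPM, XTH9 averaged 111 and XTH24 54.3 in Set2_ctrl, against 221 and 32.4 in Set1_ctrl. In log2 TPM, XTH9 stood above XTH24 by 1.77 ± 0.99 and XTH16 above XTH19 by 0.59 ± 0.42, each in 5 of 5 ctrl libraries. XTH7 was above XTH9 in 1 of 5 JA libraries, with a mean log2 ratio of -0.79 ± 0.81 (SD), against 3 of 5 ctrl libraries, which were the 3 of Set2.

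XTH7 had the change with the smallest adjusted p of the 10 genes. Its level was 98.7 and 87.9 CPM in Set1_2hJA, against 174 and 165 CPM in Set1_ctrl. In Set2 it was 81.5, 93.9 and 114 CPM in Set2_2hJA, against 118, 181 and 218 CPM in Set2_ctrl. Every JA library lay below every ctrl library of its own set, although the lowest ctrl library of Set2 came close to the highest JA library. XTH7 fell by 0.85 on the log2 scale with both sets combined (SE 0.15, adjusted p = 0.00262), to 0.557 of the ctrl level. It fell by 0.88 in Set1 (SE 0.17, adjusted p = 0.0271), and in Set2 it was at -0.84 (SE 0.22, adjusted p = 0.0578). With the replicate block XTH7 passed there as well (-0.81, adjusted p = 0.00737). Left out one at a time, the libraries of Set2 gave values of XTH7 from -1.05, the only one that passed, without Set2_ctrl replicate 1 (adjusted p = 0.0109), to -0.63 without Set2_ctrl replicate 3 (adjusted p = 0.147). Left out one at a time, no library took away the call of XTH7 in the combined fit (adjusted p between 0.000346 and 0.0104). In Set1 the call was lost without Set1_2hJA replicate 1 (-0.93, adjusted p = 0.135) and without Set1_2hJA replicate 2 (-0.80, adjusted p = 0.224), where a single JA library remained, and with library totals in place of TMM scaling (-0.76, adjusted p = 0.307).

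XTH4, a gene known from expanding cells and vascular tissue, changed in the same direction. It was at 120.3 and 114 CPM in Set1_2hJA, against 170 and 169 CPM in Set1_ctrl. The Set2_2hJA libraries had 117, 92.2 and 139 CPM, against 144, 169 and 270.5 CPM in Set2_ctrl. The groups did not overlap in either set, and Set2_ctrl replicate 3 stood well above the other ctrl libraries. XTH4 fell by 0.66 with both sets combined (SE 0.17, adjusted p = 0.0204), and this call held without any single library (adjusted p between 0.0116 and 0.0474). It was lost with library totals in place of TMM (-0.62, adjusted p = 0.0630) and with limma on TPM (-0.57, adjusted p = 0.118). In the single sets XTH4 did not pass, at -0.55 in Set1 (SE 0.16, adjusted p = 0.104) and -0.75 in Set2 (SE 0.24, adjusted p = 0.126). With the replicate block XTH4 passed in Set2 (-0.71, adjusted p = 0.0293), and without the block it was at -0.43 when Set2_ctrl replicate 3 was left out (adjusted p = 0.276) and at -0.91 when Set2_ctrl replicate 1 was (adjusted p = 0.0767).

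XTH9, known from shoot apices, did not pass in any comparison. It had 293 and 244 CPM in Set1_2hJA, against 225 and 217 CPM in Set1_ctrl, and 75.8, 116 and 123 CPM in Set2_2hJA, against 101, 105 and 127 CPM in Set2_ctrl. The JA libraries lay above the ctrl libraries in Set1 and overlapped them in Set2. The combined log2 fold change was 0.07 (95% confidence interval -0.24 to 0.38, adjusted p = 0.817). Its level differed more between the sets than between treatments, with all 4 libraries of Set1 above all 6 libraries of Set2.

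**Figure D2:**
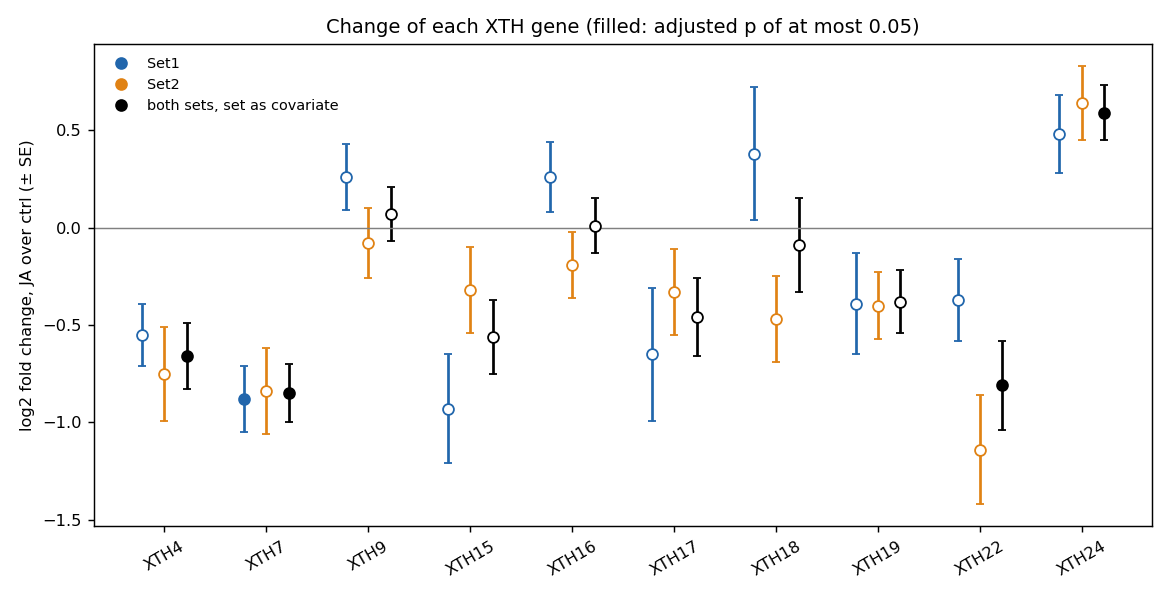
Log2 fold change of JA over ctrl with its SE (vertical axis) for the 10 XTH genes in Set1 (2 libraries a group), in Set2 (3 libraries a group) and in the fit of both sets. Filled points passed an adjusted p of at most 0.05, which XTH7 (-0.85), XTH22 (-0.81), XTH4 (-0.66) and XTH24 (0.59) did in the combined fit and XTH7 did in Set1.

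XTH22 is TCH4, known as a gene induced by touch, auxin and brassinosteroids. It was at 11.5 and 15.5 CPM in Set1_2hJA, against 17.1 and 17.4 CPM in Set1_ctrl. In Set2_2hJA it was at 13.1, 12.0 and 10.4 CPM, against 17.2, 21.6 and 39.4 CPM in Set2_ctrl. All JA libraries lay below the ctrl libraries of their set, and the distance was widest for Set2_ctrl replicate 3. That library was also the highest ctrl library of Set2 for XTH4 and XTH7, which fell, and for XTH9, XTH16, XTH17, XTH18 and XTH24, which did not. For XTH15 and XTH19 another ctrl library of Set2 was higher. XTH22 fell by 0.81 with both sets combined (SE 0.23, adjusted p = 0.0342). Of the 10 fits that left out a library, 5 kept this call. It was lost without Set1_2hJA replicate 1 (-0.81, adjusted p = 0.0708), Set2_ctrl replicate 2 (-0.83, adjusted p = 0.0572), Set2_2hJA replicate 1 (-0.79, adjusted p = 0.0733), Set2_2hJA replicate 2 (-0.76, adjusted p = 0.0754) or Set2_2hJA replicate 3 (-0.72, adjusted p = 0.0878). Without Set2_ctrl replicate 3 the value was -0.54 and passed (adjusted p = 0.0219). The call was also lost with library totals (-0.76, adjusted p = 0.103) and with limma on TPM (-0.67, adjusted p = 0.151).

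In the single sets XTH22 did not pass, with a log2 fold change of -0.37 in Set1 (SE 0.21, adjusted p = 0.404) and of -1.14 in Set2 (SE 0.28, adjusted p = 0.0521). The value of Set2 was -1.35 and passed without Set2_ctrl replicate 1 (adjusted p = 0.0234), and was -0.71 without Set2_ctrl replicate 3 (adjusted p = 0.0585). In Set1 it was -0.14 without Set1_2hJA replicate 1 (adjusted p = 0.953) and -0.60 without Set1_2hJA replicate 2 (adjusted p = 0.442). Other genes known to respond to touch were measured beside it. Of 6 such genes (TCH1, TCH2, TCH3, ZAT10, ZAT12 and WRKY40), 2 rose in the combined fit, namely the calmodulin gene TCH1 (0.54, SE 0.13, adjusted p = 0.0166) and the zinc finger gene ZAT10 (1.53, SE 0.32, adjusted p = 0.00653), and none fell. The sets differed in sign for TCH3, a calmodulin-like gene, which rose in Set1 (0.91, SE 0.19, adjusted p = 0.0389) and was at -0.64 in Set2 (SE 0.33, adjusted p = 0.345), and for the calmodulin-like gene TCH2, at 0.30 in Set1 (adjusted p = 0.505) and -0.43 in Set2 (adjusted p = 0.361). TCH3 was at 67.8, 49.6 and 70.7 CPM in Set2_2hJA, against 84.9, 54.6 and 154 CPM in Set2_ctrl, and TCH2 at 16.8, 12.5 and 15.3 CPM in Set2_2hJA, against 17.0, 15.7 and 27.9 CPM in Set2_ctrl. Set2_ctrl replicate 3, in which XTH22 was highest, was thus also the highest library of Set2 for TCH2 and TCH3. It was the highest ctrl library of Set2 for WRKY40 (7.96 CPM, against 4.18 and 4.02 CPM in the other ctrl libraries) and ZAT10. It was the lowest for ZAT12, and TCH1 was at 94.5 CPM there, against 95.1 and 89.8 CPM in the other ctrl libraries of Set2. The part of touch response in the values of XTH22 was not tested.

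XTH24, first described as MERI5 from meristem tissue, was the only one of the 10 genes that rose. It had 43.5 and 48.5 CPM in Set1_2hJA, against 37.4 and 27.5 CPM in Set1_ctrl. In Set2 it had 108, 81.4 and 63.8 CPM in Set2_2hJA, against 51.1, 53.5 and 58.4 CPM in Set2_ctrl. The JA libraries were higher without overlap in both sets, and within Set2_2hJA they were spread more widely than the ctrl libraries. XTH24 rose by 0.59 on the log2 scale (SE 0.14, adjusted p = 0.0152), 1.5-fold, in the combined fit. Set2_2hJA replicate 1, its highest library, is the library with counts in genes silent in Set1. At the average rate over those genes, which need not hold for each gene, a transcript of the length of XTH24 would hold 10.7 counts of the 1019 observed. The part of such counts in the values of XTH24 was not tested. Without Set2_2hJA replicate 1, XTH24 rose by 0.46 (SE 0.12, adjusted p = 0.0280), and it passed in all 10 fits that left out a library. It did not pass in Set1 (0.48, SE 0.20, adjusted p = 0.242) or in Set2 (0.64, SE 0.19, adjusted p = 0.0898), where it was at 0.81 and passed without Set2_2hJA replicate 3 (adjusted p = 0.0298) and was at 0.41 without Set2_2hJA replicate 1 (adjusted p = 0.179). In Set1 the value was 0.73 without Set1_ctrl replicate 1 (adjusted p = 0.0622) and 0.28 without Set1_ctrl replicate 2 (adjusted p = 0.548). XTH24 is the neighbour of XTH18 and XTH19 on chromosome 4, and neither of those rose.

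XTH15 and XTH16 are close relatives, and XTH15 is known as a gene induced by shade. XTH15 was at 5.09 and 6.005 CPM in Set1_2hJA, against 12.6 and 8.14 CPM in Set1_ctrl, and at 8.14, 10.5 and 8.46 CPM in Set2_2hJA, against 7.82, 13 and 12.9 CPM in Set2_ctrl. The groups were apart in Set1 and overlapped in Set2. Its log2 fold change was -0.56 in the combined fit (SE 0.19, adjusted p = 0.0821), -0.93 in Set1 (SE 0.28, adjusted p = 0.110) and -0.32 in Set2 (SE 0.22, adjusted p = 0.508), none of which passed. Left out one at a time, the libraries gave combined values from -0.70, which passed, without Set2_ctrl replicate 1 (adjusted p = 0.0178), to -0.40 without Set1_ctrl replicate 1 (adjusted p = 0.195), none of the other 9 passing. In Set1 they gave values from -1.21, which passed, without Set1_ctrl replicate 2 (adjusted p = 0.0409), to -0.57 without Set1_ctrl replicate 1 (adjusted p = 0.254), and in Set2 from -0.52 to -0.20, where none passed. XTH16 was at 50.55 and 41.8 CPM in Set1_2hJA, against 36.0 and 40.1 CPM in Set1_ctrl, and at 28.4, 27.8 and 36.4 CPM in Set2_2hJA, against 30.85, 30.7 and 43.8 CPM in Set2_ctrl. The JA libraries of XTH16 were the higher ones in Set1 and overlapped the ctrl libraries in Set2. The combined log2 fold change of XTH16 was 0.01 (95% confidence interval -0.30 to 0.32, adjusted p = 0.983).

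XTH17, XTH18 and XTH19 are known from roots. XTH17 had 7.01 and 12.1 CPM in Set1_2hJA, against 18.5 and 11.3 CPM in Set1_ctrl, and 11.0, 12.5 and 8.01 CPM in Set2_2hJA, against 10.4, 13.3 and 16.1 CPM in Set2_ctrl. XTH18 had 16.3 and 22.05 CPM in Set1_2hJA, against 19.5 and 9.60 CPM in Set1_ctrl, and 11.3, 11.7 and 9.98 CPM in Set2_2hJA, against 11.3, 13.4 and 20.9 CPM in Set2_ctrl. XTH19 had 14.9 and 21.6 CPM in Set1_2hJA, against 27.9 and 19.2 CPM in Set1_ctrl, and 17.3, 28.2 and 20.2 CPM in Set2_2hJA, against 31.3, 26.8 and 28.4 CPM in Set2_ctrl. The groups of these genes overlapped in both sets, and the ctrl libraries of Set1 also differed from each other. None of them passed in the combined fit, where the log2 fold change was -0.46 for XTH17 (SE 0.20, adjusted p = 0.181), -0.38 for XTH19 (SE 0.16, adjusted p = 0.138) and -0.09 for XTH18 (SE 0.24, adjusted p = 0.860).

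XTH18 had opposite signs in the sets, 0.38 in Set1 (SE 0.34, adjusted p = 0.617) and -0.47 in Set2 (SE 0.22, adjusted p = 0.32). In Set1 it was 0.99 without Set1_ctrl replicate 1 (adjusted p = 0.0374) and -0.04 without Set1_ctrl replicate 2 (adjusted p = 0.966). XTH19 in Set2 was at -0.62 and passed without Set2_2hJA replicate 2 (adjusted p = 0.0491), and was at -0.26 without Set2_2hJA replicate 1 (adjusted p = 0.488). The log2 CPM of XTH17 and XTH18, with their like promoters, had a Pearson correlation of 0.51 over the 10 libraries. The correlation was 0.74 for XTH17 and XTH19 and 0.39 for XTH18 and XTH19, pairs whose promoters were not alike. For these values the mean of each set was subtracted and the difference between JA and ctrl was left in. The part of the promoters in these values was not tested.

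Root markers varied along with some of these genes. The summed level of the endodermis genes CASP1 to CASP5, which shape the Casparian strip, was 25.6 and 34.8 CPM in Set1_2hJA, against 55.7 and 37.7 CPM in Set1_ctrl. In Set2 it was 29.9, 36.3 and 28.2 CPM in Set2_2hJA, against 26.0, 38.8 and 30.2 CPM in Set2_ctrl. The root hair genes (EXPA7, EXPA18, COBL9, PRP3 and LRX1) summed to 16.2 and 28.3 CPM in Set1_2hJA, against 54.4 and 35.0 CPM in Set1_ctrl, and in Set2 to 35.7, 50.25 and 39.2 CPM in Set2_2hJA, against 26.0, 39.4 and 38.9 CPM in Set2_ctrl. Both sums were lower in the JA libraries of Set1 than in its ctrl libraries, and both overlapped in Set2. In Set1, 0 of 5 endodermis and 0 of 5 root hair genes passed, while 3 and 2 of them had an unadjusted p no higher than 0.05. In the combined fit 0 of the 4 endodermis genes and 0 of the 5 root hair genes tested passed with edgeR, and 0 did so without adjustment. As a description over 10 libraries that share their sets and depths, the Pearson correlation with the log2 endodermis sum, after subtracting set means, was 0.89 for XTH15, 0.82 for XTH17, 0.60 for XTH19 and 0.14 for XTH18. It was 0.45 for XTH7, 0.24 for XTH22, 0.19 for XTH4, -0.12 for XTH24, -0.29 for XTH9 and -0.59 for XTH16. The difference between JA and ctrl was left in these values. The part of root content in the values of the 10 genes was not tested.

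**Figure D3:**
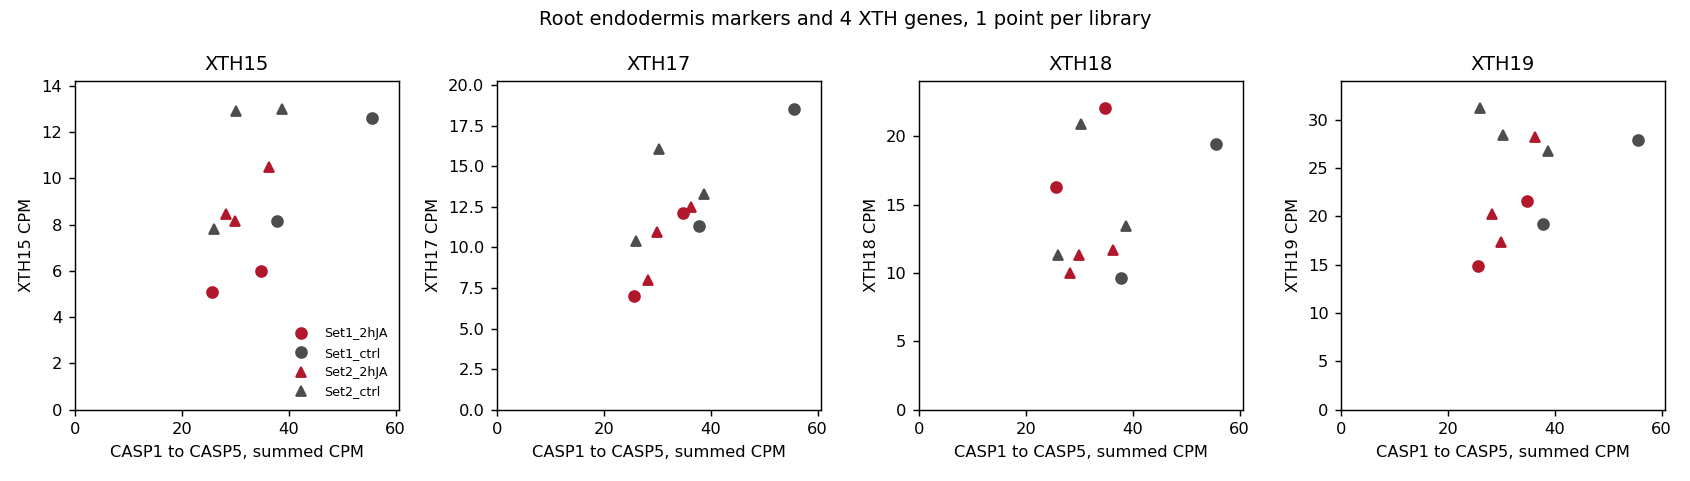
CPM of XTH15, XTH17, XTH18 and XTH19 (vertical axes) against the summed CPM of the endodermis genes CASP1 to CASP5 (horizontal axes), with 1 point per library. XTH17 and the markers are both lowest in Set1_2hJA replicate 1 (7.01 and 25.6 CPM) and both highest in Set1_ctrl replicate 1 (18.5 and 55.7 CPM).

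Leaf mesophyll markers moved as well. Of 4 such genes, RCA, the Rubisco activase gene (-0.71, SE 0.14, adjusted p = 0.00438), and GAPA, a gene of the Calvin cycle (-0.51, SE 0.13, adjusted p = 0.0250), fell in the combined fit, while RBCS1A (-0.24, adjusted p = 0.275) and LHCB1.3 (-0.22, adjusted p = 0.375) did not pass. The 4 leaf markers summed to 39890 and 38720 CPM in Set1_2hJA, against 54850 and 54760 CPM in Set1_ctrl. In Set2 they ranged from 22830 to 32040 CPM in Set2_2hJA, against 30780 to 36130 CPM in Set2_ctrl. The part of leaf content in the values of the XTH genes was not tested.

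The interaction of set and treatment asks if JA acted differently in the experiments. None of the 10 genes passed, and none of the 20213 genes tested in the main edgeR fit passed, although 7.11% of them, and 0 of the 10, reached 0.05 before adjustment. DESeq2 and limma also called 0 of the 10. The lowest unadjusted p of the 10 genes was 0.0695, for XTH18 (-0.86 for Set2 minus Set1, 95% confidence interval -1.81 to 0.08, adjusted p = 0.738). The interval of XTH22 was -1.68 to 0.12 around -0.78, and that of XTH7 was -0.67 to 0.72 around 0.03, so these libraries leave wide limits on any difference between the sets.

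The genes varied together to different degrees. As a description over the 10 libraries after subtracting set means, the Pearson correlation of log2 CPM was 0.91 between XTH4 and XTH7, 0.87 between XTH15 and XTH17, 0.86 between XTH4 and XTH22 and 0.79 between XTH7 and XTH22. XTH24 and XTH7 had a correlation of -0.76. Only set means were subtracted, so the difference between JA and ctrl is part of these correlations and of those that follow. Genes that changed in the same direction, or in opposite directions, share that difference. Of 18546 genes compared, all with a mean log2 CPM no lower than 1, those most like XTH7 were the lignin biosynthesis gene ATCAD4 (0.979), AT4G32460 (0.976) and AT4G19420 (0.973). Those most like XTH24 were the metacaspase gene MC7 (0.993), AT5G52990 (0.966) and UNE1 (0.965). Without Set2_2hJA replicate 1 these values were 0.967 to 0.980 for the genes like XTH7 and 0.931 to 0.987 for those like XTH24, over 9 libraries.

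Over the whole family, the 10 genes included, the pattern was mixed as well. Of all 33 XTH genes, 26 were tested in the combined fit, and the 7 that were not (XTH1, XTH2, XTH3, XTH11, XTH25, XTH29 and XTH33) had at most 29 counts in any library. In the combined fit 2 of 26 rose and 5 fell, against 6.93% higher and 6.67% lower over all genes, with a median log2 fold change of -0.11 against 0.01 over all genes tested. These counts include the calls of the 10 genes. Of the 16 other XTH genes tested, 1 rose and 2 fell, with a median of -0.09. In Set1 the family had 2 calls lower (XTH6 and XTH7) and in Set2 it had 1 call higher (XTH20). Among the genes outside the 10, XTH20 rose by 1.38 (SE 0.22, adjusted p = 0.00129), and it was the only XTH gene that rose by at least 2-fold. XTH20 is a close relative of XTH17 to XTH19, known from the healing of cut stems, and had 8.88 and 14.8 CPM in Set1_2hJA, against 6.49 and 3.74 CPM in Set1_ctrl, and 8.51, 10.2 and 13.3 CPM in Set2_2hJA, against 3.91, 2.81 and 4.53 CPM in Set2_ctrl. Every JA library of XTH20 was higher than the ctrl libraries of its set. XTH6 fell by 0.94 (SE 0.22, adjusted p = 0.0137) and XTH27, known from vein cells, fell by 0.63 (SE 0.17, adjusted p = 0.0292).

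**Figure D4:**
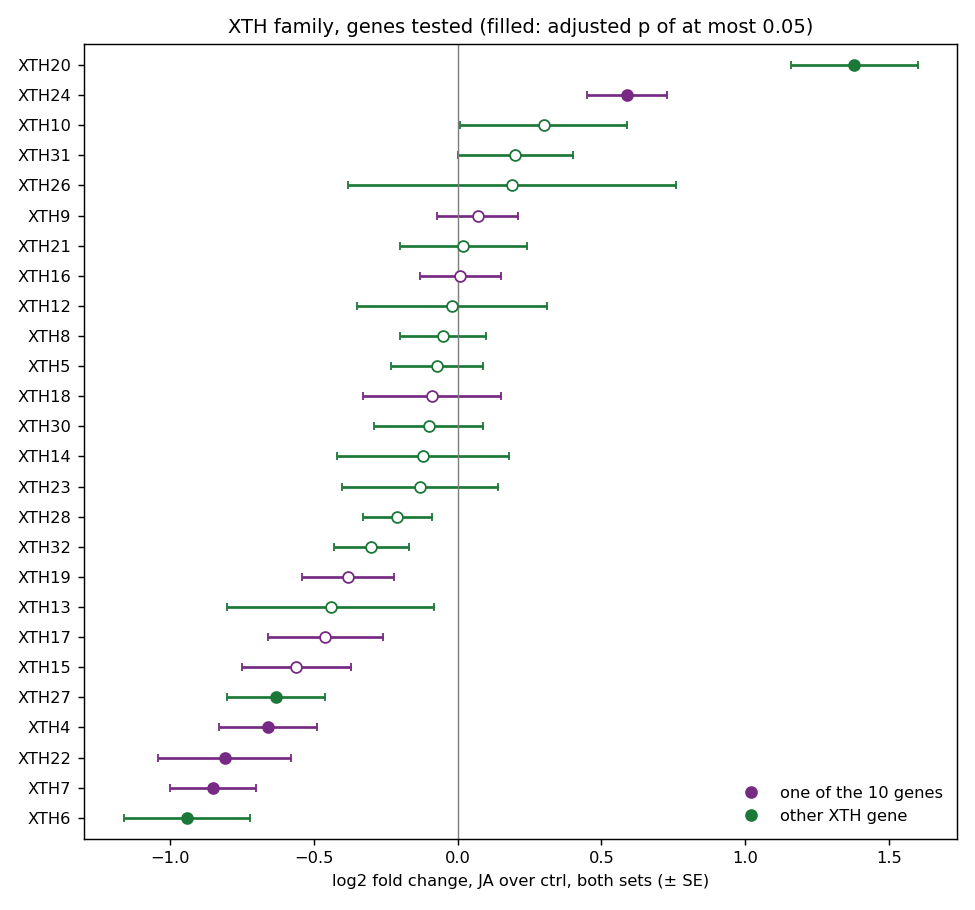
Log2 fold change of JA over ctrl with its SE in the fit of both sets (horizontal axis) for the 26 XTH genes tested, ordered from highest to lowest, with the 10 genes in purple and the other 16 in green. Filled points passed an adjusted p of at most 0.05 and lie at both ends, XTH20 (1.38) and XTH24 (0.59) above and XTH27, XTH4, XTH22, XTH7 and XTH6 (-0.63 to -0.94) below.

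Genes that make and trim xyloglucan, the substrate of the XTH enzymes, were counted in the same way. Of 17 such genes, all tested, 1 rose and 1 fell in the combined fit, against 6.93% higher and 6.67% lower over all genes. Their median log2 fold change was 0.18, against 0.01 over all genes, and 12 of the 17 values were positive. An unadjusted p of 0.05 or less was reached by 8 of the 17 with edgeR, against 26% of all genes. BGAL10, which removes galactose from xyloglucan side chains, rose by 0.79 (SE 0.11, adjusted p = 0.000366). Its level was 75.6 and 72.7 CPM in Set1_2hJA, against 47.5 and 50.7 CPM in Set1_ctrl, and 34.8, 34.4 and 31.8 CPM in Set2_2hJA, against 20.2, 17.6 and 15.1 CPM in Set2_ctrl. All JA libraries were higher than the ctrl libraries of their set, and BGAL10 also passed in Set2 alone (0.93, SE 0.13, adjusted p = 0.00373). AXY8, which removes fucose, fell by 0.33 (SE 0.09, adjusted p = 0.0300). The glucan synthase genes CSLC4, CSLC5, CSLC6, CSLC8 and CSLC12 and the xylosyltransferase genes XXT1 to XXT5 had log2 fold changes between -0.28 and 0.56, none of which passed.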

How the data were processed

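RNA of whole Col-0 seedlings was prepared with a kit that selects polyadenylated RNA and keeps its strand. Per the methods and the submitters' processing notes, reads were aligned by the authors with STAR (version 2.7.5a) to TAIR10 and quantified with RSEM (version 1.3.3). For each of the 10 libraries the authors deposited expected counts per gene, estimates that need not be whole, and TPM, scaled by effective length and library total. Their edgeR (version 3.36.0) tables of fold changes and p-values for each set were not used. Groups and replicate numbers came from the sample titles. Per the methods, Set2 belongs to an experiment run as 3 independent JA time courses. Of Set1 they say that replicates were biological, but not whether these came from separate treatments. The p-values of Set1 may therefore not measure the spread between separate treatments.

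Expected counts were rounded. In R (version 4.3.3), edgeR (version 4.0.16) was run with filterByExpr by group, TMM scaling and the quasi-likelihood F test, for each set alone, for both sets with the set as covariate, and for the interaction. The SE is the size of the log2 fold change over the square root of F. CPM used the TMM-scaled totals of all 10 libraries. Alternatives were DESeq2 (version 1.42.0), library totals, no filter, limma (version 3.58.1) on log2(TPM + 1), removal of organelle and rRNA genes, a replicate block, each library left out, a 2-fold threshold and, chosen after seeing the data, robust estimation. The fit was tested on simulated data with planted changes larger than any that the 10 genes showed, so that test does not bear on changes as small as theirs.

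The deviations of same-numbered libraries from their group means correlated at 0.24, 0.22 and 0.24 in Set2, so the numbers were taken to pair its libraries. In Set1 the value was 0.43, and both replicate 1 libraries had higher shares of plastid and rRNA counts than both replicate 2 libraries. Still, 2 pairs cannot settle whether the numbers pair the libraries of Set1. The main fits did not use the pairing in either set.

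The genes, lists and tests were chosen with earlier results of these data known. Named genes were the 10 XTH genes, other XTH and xyloglucan genes that passed the combined fit (at most 5 in each direction), the check, touch and marker genes, and the 3 genes most correlated with the risen and the fallen XTH gene of smallest adjusted p. The xylosyltransferase and glucan synthase genes were named as classes. Coordinates, sequences and symbols came from RefSeq TAIR10.1, in which 99.3% of 21633 single-transcript genes had the deposited length, with coding sequences aligned in Biopython (version 1.88).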

Additional observations from a re-analysis of the deposited data

How the results depend on the processing

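The combined calls of XTH7 and XTH24 held under all 7 other settings (6 planned, 1 added after seeing the data) and without any library, and those of XTH4 and XTH22 under 5 of the 7 settings. The count of genes that fell, 3 in the combined fit, was 1 with library totals and 1 with limma on TPM, and 2 to 4 with a library left out. In Set1, where 1 gene fell, the count was 2 with DESeq2, 0 with library totals, 0 with limma and 0 to 2 with a library left out, and the count that rose was 0 to 1. In Set2, where none passed, 3 fell with DESeq2, 3 with no filter, 2 without organelle and rRNA genes and 0 to 2 with a library left out, while 1 rose with DESeq2 and 0 to 1 with a library left out. With at least 2-fold, 0 of the 10 genes remained in either direction in the combined fit and 0 in Set1. For the whole family this threshold left 1 lower in Set1, and 1 higher and 0 lower in the combined fit. For the xyloglucan genes it left 0 higher and 0 lower in the combined fit and 0 higher in Set2. The cause of these differences was not tested.

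With the replicate number as a block, 3 of the 10 genes fell in Set1 (XTH4 and XTH15 beside XTH7) and 2 in Set2, and the block changed no other call of the 10 genes. In Set1 the numbers are shared between groups, but 2 pairs do not show that they pair the libraries.

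No log2 fold change of a single set or of both sets changed sign under the 7 settings. In the interaction XTH7 was -0.08 with library totals and -0.13 with limma, and XTH24 was -0.09 with limma. With a library left out, values that crossed 0 ranged from -0.04 to 0.99 for XTH18 in Set1, from -0.21 to 0.09 for XTH9 and from -0.32 to 0.01 for XTH16 in Set2, and from -0.01 to 0.19 for XTH9, from -0.08 to 0.13 for XTH16 and from -0.32 to 0.11 for XTH18 in the combined fit. In the interaction they ranged from -0.38 to 0.11 for XTH4, from -0.19 to 0.23 for XTH7, from -0.10 to 0.75 for XTH17, from -0.33 to 0.27 for XTH19 and from -0.10 to 0.33 for XTH24. None of these results had passed a test.

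The median log2 fold change of all genes in Set1 was -0.02 with TMM, 0.10 with library totals and 0.15 with limma on TPM, an alternative that changes the test as well as the scaling, and higher against lower calls were 727 against 594 with TMM, 512 against 207 with library totals and 517 against 169 with limma. The median of the interaction was 0.01, -0.09 and -0.17 in the same order. In the combined fit they were 1401 against 1348, 1162 against 760 and 904 against 512. The interaction called 0 genes in the main fit and with library totals, 59 higher and 89 lower with DESeq2, and 38 higher and 41 lower with no filter. With the replicate block it called 29 higher and 32 lower. Robust estimation and the removal of organelle and rRNA genes each gave 2 higher and 4 lower, and limma gave 0 higher and 1 lower.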
